A study of Mus musculus with 5 samples.

Results

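KLF5 peaks whose summits lay outside every protein-coding gene, more than 10 kb and at most 100 kb from the nearest coding gene start or end, were examined in mouse embryonic stem (ES) cells. They were taken from the peak list of the V5 chromatin immunoprecipitation (ChIP-seq) of V5-KLF5 cells by the position of each summit alone, with RefSeq genes of GRCm38 (mm10) on chromosomes 1 to 19. This gave 7832 intergenic summits, 17.5% of the 44760 autosomal peaks and part of a whole list of 45378. The strength of a peak was not used to choose them. The study comprised 5 libraries, each the only one of its group. V5 and normal mouse IgG immunoprecipitates and an input came from wild-type ES cells, derived from C57B6/J mice, that overexpress KLF5 fused to the V5 epitope tag. A V5 immunoprecipitate and an input came from wild-type ES-D3, a long-established ES cell line that lacks the tagged protein. Because the tagged protein was overexpressed, the peaks describe binding at a raised KLF5 level. The promoter that drives it, and whether the cells are 1 clone, are not given in the sources used here. With 1 library per group no value below has a replicate check, no test between groups was possible, and the 95% intervals (exact binomial for shares, exact Poisson for densities) cover counting error only.

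KLF5 is a Krüppel-like zinc-finger transcription factor that binds GC-rich DNA of the CACCC-box type and takes part in ES cell self-renewal together with the related factors KLF2 and KLF4. In the early embryo it acts in both the trophectoderm and the inner cell mass. Transcription factors bind both at promoters and at distal enhancers, which can act on a gene over long stretches of DNA and need not act on the nearest one. Intergenic DNA also holds genes for long non-coding RNAs (lncRNAs), microRNAs and transfer RNAs, so a summit far from a coding gene can still lie at a start site.

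Some of the intergenic summits fell at the start of a lncRNA gene, and these are shown first because RefSeq gives their sequence. Each line is a 300-base promoter window on the strand of the gene, from 250 bases before the start to 50 bases after it, so that the gene begins at base 251. Capitals mark matches to the KLF motif GGGNGNGG or its reverse complement. The first 5 windows hold a strong summit and at least 1 match, and the last was chosen as a counter-example with 0 matches. They do not stand for all windows with a strong summit. Of those not printed, some had a match near the summit, such as Gm36472 at 7.5 bases. Others did not, and the nearest match was 131.5 bases away in Gm33448, 189.5 in Gm32635 and 202.5 in Gm34552. All are from the RefSeq promoter table of GRCm38. Gm40577 lies on the minus strand at chr12:110418015-110418314 with the summit at base 288 and a fold enrichment of 31.7. Gm32796 lies on the plus strand at chr16:29977820-29978119 with the summit at base 104 and a fold enrichment of 22.2. Platr26, a lncRNA gene named for its expression in pluripotent cells, lies on the plus strand at chr2:71719167-71719466 with the summit at base 89 and a fold enrichment of 14.9. E030011O05Rik lies on the minus strand at chr9:96752782-96753081 with the summit at base 204 and a fold enrichment of 14.1. Snhg5, a host gene of small nucleolar RNAs, lies on the minus strand at chr9:88522848-88523147 with the summit at base 53 and a fold enrichment of 12.1. Platr22 lies on the plus strand at chr1:136695961-136696260 with the summit at base 192 and a fold enrichment of 29.0.
Gm40577: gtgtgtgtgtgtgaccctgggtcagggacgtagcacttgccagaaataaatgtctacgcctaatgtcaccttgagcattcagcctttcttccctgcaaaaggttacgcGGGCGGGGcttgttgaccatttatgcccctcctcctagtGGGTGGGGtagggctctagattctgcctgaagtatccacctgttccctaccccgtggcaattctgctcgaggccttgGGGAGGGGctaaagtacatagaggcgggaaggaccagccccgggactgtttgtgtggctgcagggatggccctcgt
Gm32796: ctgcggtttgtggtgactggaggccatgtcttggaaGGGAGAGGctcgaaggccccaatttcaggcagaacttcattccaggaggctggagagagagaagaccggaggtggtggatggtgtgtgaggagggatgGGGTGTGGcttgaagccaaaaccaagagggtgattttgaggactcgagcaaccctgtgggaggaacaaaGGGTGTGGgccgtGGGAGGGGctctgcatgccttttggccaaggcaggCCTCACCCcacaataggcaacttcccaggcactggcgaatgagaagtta
Platr26: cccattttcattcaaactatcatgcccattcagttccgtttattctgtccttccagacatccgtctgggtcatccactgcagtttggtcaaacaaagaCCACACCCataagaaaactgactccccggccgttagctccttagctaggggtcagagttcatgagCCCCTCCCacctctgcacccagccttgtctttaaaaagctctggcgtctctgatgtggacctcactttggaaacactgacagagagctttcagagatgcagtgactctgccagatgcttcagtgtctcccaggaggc
E030011O05Rik: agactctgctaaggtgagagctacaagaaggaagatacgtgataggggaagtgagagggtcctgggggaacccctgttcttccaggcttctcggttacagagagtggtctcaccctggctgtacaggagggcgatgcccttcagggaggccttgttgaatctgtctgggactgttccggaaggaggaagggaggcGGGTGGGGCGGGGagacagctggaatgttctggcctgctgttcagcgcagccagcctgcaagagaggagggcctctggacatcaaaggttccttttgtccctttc
Snhg5: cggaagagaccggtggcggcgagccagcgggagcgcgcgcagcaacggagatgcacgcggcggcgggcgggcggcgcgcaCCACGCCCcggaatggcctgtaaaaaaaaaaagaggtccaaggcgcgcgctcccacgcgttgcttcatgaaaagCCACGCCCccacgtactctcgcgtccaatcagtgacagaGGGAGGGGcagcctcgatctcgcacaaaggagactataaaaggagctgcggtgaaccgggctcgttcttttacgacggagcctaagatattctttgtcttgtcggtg
Platr22: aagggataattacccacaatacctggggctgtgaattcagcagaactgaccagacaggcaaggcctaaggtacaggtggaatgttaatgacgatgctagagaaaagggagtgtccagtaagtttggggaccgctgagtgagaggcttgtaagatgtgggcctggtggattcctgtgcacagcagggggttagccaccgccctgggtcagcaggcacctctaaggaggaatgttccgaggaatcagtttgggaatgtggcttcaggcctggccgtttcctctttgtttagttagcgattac

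Fold enrichment here is the authors' value for each peak, the pileup of extended tags at the summit plus 1 over the local input background plus 1. In E030011O05Rik the centre of the nearest of 2 overlapping matches, at bases 196 and 201, stood 0.5 bases from the summit, in Platr26 13.5 bases, in Snhg5 31.5 bases and in Gm32796 34.5 bases. In Gm40577 the nearest of 3 matches was 59.5 bases away.

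A control peak overlapped 0 of the 7832 summits. The IgG list held 3 peaks and the V5 list of ES-D3 cells held 0, at depths of 24.5 M (mega) and 21.8 M tags kept against 23.2 M in the V5-KLF5 library. The inputs kept 30.2 M and 22.1 M tags. The header of the ES-D3 list names another line, JM8.N4, so the identity of this control is uncertain.

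Intergenic KLF5 peaks had fold enrichments like those of peaks elsewhere but were sparser than peaks in and near genes. Their fold enrichment had a median of 5.17, an interquartile range of 4.15 to 7.54 and a maximum of 45.5, with pileups of 11 to 260 tags. A fold enrichment of at least 10 was reached by 1076 of them, or 13.7% (13.0 to 14.5), against a background of 13% over all autosomal peaks, so this share is no feature of the intergenic summits. The share was 14.6% at coding gene ends (summit within 1 kb), 11.5% inside genes, 13.8% outside genes at 1 to 10 kb and 12.7% beyond 100 kb. Density told these places apart. The territory that the rule covers measured 528.7 Mb and held 14.8 summits per Mb (14.5 to 15.1), against 159 per Mb within 1 kb of gene ends, 24.7 at 1 to 10 kb outside, 18.7 inside genes and 3.67 beyond 100 kb. Peaks were also shorter than at gene ends, with a median length of 408 bp against 512 bp. The other places were like the intergenic summits in this, with 404 bp inside genes, 411 bp at 1 to 10 kb outside and 393 bp beyond 100 kb. For strong peaks, those with at least 10-fold enrichment, the medians were 707 bp for the intergenic summits and 844 bp at gene ends. The input background stood on the genome-wide floor of 3.10 tags for 40.4% of intergenic summits (39.3 to 41.5), against 33.8% at gene ends and 55.5% beyond 100 kb, and its part in these values was not tested.

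Within the territory, summits thinned out with distance while their strength stayed level. Density was 19.1 per Mb at 10 to 20 kb from the nearest coding gene, 17.0 at 20 to 30 kb, 15.3 at 30 to 40 kb, 13.1 at 40 to 50 kb and 13.1 at 50 to 60 kb. It was 11.4 at 60 to 70 kb and 9.97, 9.69 and 9.69 in the last 3 bins to 100 kb. At least 10-fold enrichment was reached by 13.8% (12.4 to 15.2) in the nearest bin and 13.1% (9.38 to 17.6) in the farthest, with between 10.7% and 15.0% in all 9 bins and no order by distance. The strand of the nearest gene was known for 5998 summits. The 5′ side of genes held 15.3 per Mb (14.8 to 15.8, n = 3414) and the 3′ side 13.8 per Mb (13.2 to 14.3, n = 2584). The gap between sides was widest close to the gene, with 20.1 against 17.1 per Mb at 10 to 20 kb, and from 20 kb on the intervals of the 2 sides overlapped in every bin.

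**Figure D1:**
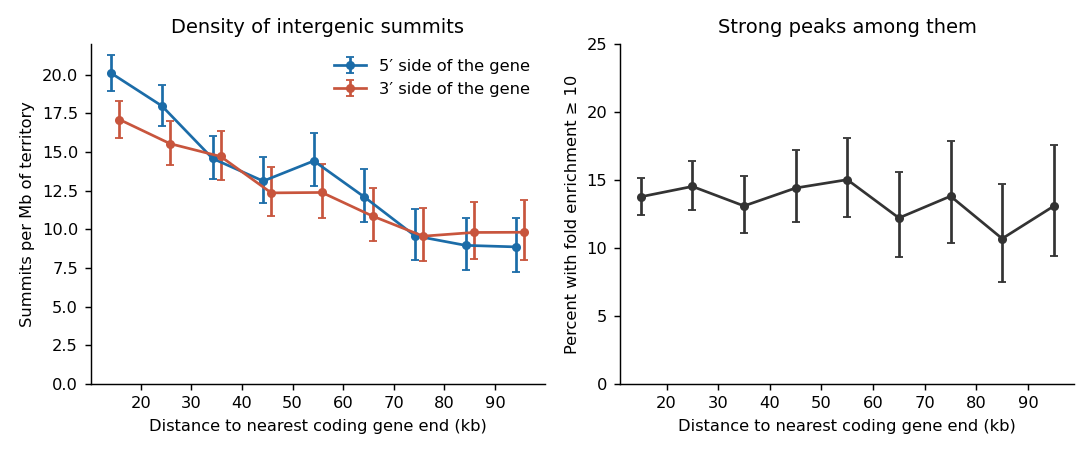
Left, intergenic KLF5 summits per Mb of territory by distance to the nearest coding gene end (kb), on the 5′ side (blue) and the 3′ side (red) of genes; right, the percentage with a fold enrichment of at least 10, both sides together. Bars are exact 95% intervals; density falls from 20.1 to 8.86 per Mb on the 5′ side, while the share of strong peaks lies between 10.7% and 15.0%.

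Density also fell as the gap between genes grew. Distance and gap size are tied by geometry. A summit between coding genes and over 50 kb from the nearest one must lie in an interval over 100 kb. The trends by distance and by gap size were not separated here. Intervals of 20 to 50 kb between coding genes held 24.4 summits per Mb of territory, those of 50 to 100 kb 20.0, those of 100 to 200 kb 17.0, those of 200 to 500 kb 11.6 and longer ones 7.62. Of the 8282 intervals over 20 kb, 3035 (36.6%) held at least 1 summit, 445 held 5 or more, and the fullest held 19. Chromosome 7 had the lowest density, 10.2 per Mb, and chromosome 11 the highest, 23.5, with a median of 14.96 over the 19 autosomes. Strong peaks made up 9.86% of the summits of chromosome 13 and 18.1% of those of chromosome 15, the extremes among autosomes.

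The 20 strongest intergenic summits had fold enrichments of 31.9 to 45.5. The strongest, at chr4:119071210-119073615, lay 36.8 kb on the 5′ side of Slc2a1, the gene of the glucose transporter GLUT1, with a pileup of 254 tags over a background of 4.601 and a fold enrichment of 45.5. A summit at chr7:73616967-73619148 lay 76.4 kb from Chd2, a chromatin remodeller gene, also with 45.5. Next came Slc20a1, a phosphate transporter gene, at 41.8 (20.1 kb on its 5′ side), Grap at 41.2 (32.8 kb), Fblim1 at 41.0 (10.5 kb on its 3′ side) and Tuba1c, an alpha-tubulin gene, at 40.3 (36.7 kb on its 5′ side). Further summits among the 20 were nearest to the transcription factor gene Nrf1 (39.1), the Polycomb partner gene Rybp (38.2, at a distance of 90.9 kb), Klf3 (37.1, 32.0 kb on its 3′ side), Zfp236 (35.6) and Ssbp3 (31.9). The kinase genes Pim1 and Map4k3 had summits of 37.2 and 36.7, the RNA-binding protein gene Qk one of 37.1 and the Wnt ligand gene Wnt11 one of 37.1. The remaining 5 were nearest to Mpp7 (34.7), Nlrp12 (34.6), Gm11545 (34.3), Pmepa1 (33.0) and Misp (32.6). These 20 lay between 10.5 and 90.9 kb from a coding gene. The summits nearest to Slc20a1, Pim1, Wnt11 and Zfp236 lay inside a non-coding gene.

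Many intergenic summits came in groups, and strong peaks made up more of the grouped summits than of the single ones. With neighbours joined where they stood at most 10 kb apart, 31.0% (30.003 to 32.1) fell in 599 groups of 3 or more, and 45.9% stood alone. Over all autosomal peaks, which are denser, the shares were 41.5% and 36.2%. A fold enrichment of at least 10 was reached by 16.5% (15.0 to 18.0) of summits in groups of 3 or more and by 11.6% (10.5 to 12.7) of single ones. The medians, 5.24 and 5.12, were close.

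The largest group held 15 summits over 44.6 kb of chromosome 17 between Fgd2 and Pim1, the latter a serine/threonine kinase gene downstream of LIF and STAT3 signalling. A single summit of it reached 37.2, with 16.2 for the next and 3.04 to 9.85 for the others. On chromosome 6, 13 summits over 42.9 kb lay between Plekhg6 and Cd9, a tetraspanin gene expressed on ES cells. Of these, 3 stood out, at 30.1 and 25.1 on the Cd9 side and 16.1 on the Plekhg6 side. On chromosome 4, 12 summits lay within 18.6 kb between Arhgef19 and Epha2, an ephrin receptor gene, and the 2 highest, 31.4 and 18.9, were 14204 and 16678 bp from Epha2. On chromosome 18, 12 summits lay between Gnpda1 and Ndfip1, with values of 21.1, 17.8 and 17.7 for the 3 highest. Next came 3 groups of 11 summits each. The one between E330021D16Rik and Atf7ip had its highest values at 18.8 and 14.6, the one next to Zfp217 had 1 summit above 10, at 13.7, and the one between Dnajb12 and Ddit4 had 0, with a maximum of 8.48. A group could thus be large with few or no strong summits.

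**Figure D2:**
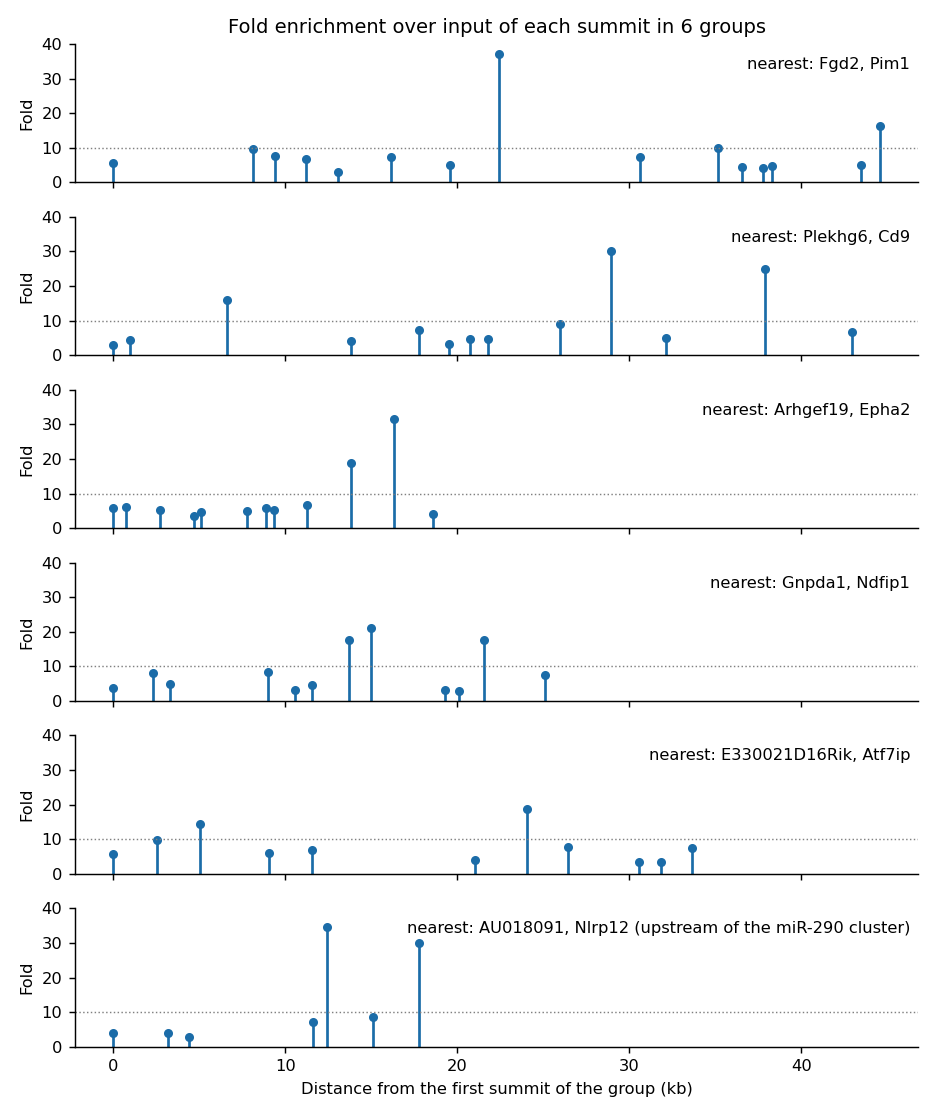
Fold enrichment over input (linear axis) of every intergenic summit in 5 of the largest groups (of 3 groups tied at 11 summits, the one with the highest fold enrichment) and in the group upstream of the miR-290 cluster, against distance from the first summit of the group (kb); the dotted line is a fold enrichment of 10. The 6 groups drawn hold 2 or 3 summits above the line each, up to 37.2 in the group next to Pim1; the tied groups not drawn hold 1 and 0.

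A group of 7 summits preceded the miR-290 cluster on chromosome 7, the microRNA cluster that is most abundant in mouse ES cells and promotes their rapid cell cycle. The summits ran from position 3188931 to 3206729 and had fold enrichments of 4.04, 3.90, 2.88, 7.03, 34.6, 8.54 and 29.9. The pair at 34.6 and 29.9 thus stood far above the other 5. The last was 11897 bp before Mir290a, the first gene of the cluster, which extends to Mir295 at 3220841. By coding genes these summits were assigned to Nlrp12 and AU018091, since the rule uses coding genes only. The cluster encodes mature microRNAs from both hairpin arms, and 4 of the 3p arms are printed from RefSeq with the seed (bases 2 to 8) in capitals. They are examples of near-identical seeds and not all of them. Of the other mature forms used here, the 5p arms, miR-291b-3p (seed AAGUGCA, also near-identical) and miR-293-3p (seed GUGCCGC) are not printed. MiR-291a-3p, miR-294-3p and miR-295-3p share the seed AAGUGCU, and the seed of miR-290a-3p is AAGUGCC.
mmu-miR-291a-3p: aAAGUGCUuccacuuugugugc
mmu-miR-294-3p: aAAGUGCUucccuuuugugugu
mmu-miR-295-3p: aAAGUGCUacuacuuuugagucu
mmu-miR-290a-3p: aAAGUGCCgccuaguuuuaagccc

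The gene with the most intergenic summits was Jarid2, which encodes a subunit of Polycomb repressive complex 2, with 18. The rule allowed summits on its 5′ side only, since Dtnbp1 adjoins its 3′ end, and they lay between 15029 and 97035 bp away, with fold enrichments of 2.94 to 15.4, and 2 of them passed 10. Hes1, a Notch target and transcriptional repressor gene, had 17, of which 5 passed 10, with the highest at 22.2 in the Gm32796 promoter window printed above. Rybp had 16, of which the summits at 38.2 and 20.9 passed 10, the latter at the start of lncRNA Gm33448. Tbx3, a T-box factor gene of the naive ES cell state, had 15, of which those at 16.1 and 10.9 passed 10. Zfp64 had 15, with 11.8 and 11.7 the only values above 10, and 1700001O22Rik also had 15 with a lower best value of 10.98. Over all intergenic summits 13.7% reached a fold enrichment of at least 10, and over all autosomal peaks 13%. The 2 strong summits at each of Jarid2, Rybp, Tbx3 and Zfp64 are near that share. Hes1, with 5 of 17, stood above it on few summits, which was not tested. This order is by count and leaves aside the territory that each gene offers. Per Mb of its own territory Jarid2 had 200 summits and Rybp 88.9. Pim1, with 14 summits, had 297 per Mb and Cd9, with 13, had 268, both picked after their values were seen. Most genes had far fewer summits. The 7832 summits were nearest to 3638 coding genes, 1882 of which had 1 summit, 345 had 5 or more and 35 had 10 or more.

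Gene lists were compared by how many of their genes had at least 1 intergenic summit nearest to them, beside 17.7% of all 20560 autosomal coding genes, and by how many had one with a fold enrichment of at least 10, beside 4.21%. By the first count 11 of the 12 lists stood above all genes. Of the 20560 genes only 11864 border the territory and could have a summit. Of these 30.7% had one, and 866 had a strong one. Among bordering genes alone, a count added after the data were seen, 11 of the 12 lists again stood above all genes. Genes flanked by more intergenic DNA have more room for a summit, so the density in each list's own territory, a measure added after the data were seen, is given beside 14.8 per Mb over all genes. Nearest genes share neighbours and summits cluster, and a nearest gene need not be the target, so these are counts and not tests.

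Pluripotency and trophectoderm lists lay above the density of all genes, with intervals that did not reach it. Of 26 inner cell mass (ICM) and naive pluripotency genes, 16 had a summit and 7 a strong one, at 43.3 summits per Mb (33.9 to 54.5). The highest were at Prdm14, a regulator of naive pluripotency (21.2, at 28.3 kb), Klf4 (17.0, 49.6 kb on its 3′ side), Tbx3 (16.1, at 90.4 kb) and Dppa3 (13.9, at 32.8 kb). Of 24 trophectoderm (TE) and trophoblast genes, 17 had a summit and 8 a strong one, at 30.8 per Mb (22.7 to 40.8). Ets2 (29.0, 46.5 kb on its 3′ side), Id2 (26.8, 73.7 kb on its 5′ side), Tfap2c (22.1, at 18.7 kb) and Elf5 (12.6, 39.5 kb on its 5′ side), which encode transcriptional regulators of the trophoblast lineage, came first. The intervals of these 2 lists overlapped. Of 11 formative and primed genes, 7 had a summit and 5 a strong one, at 34.9 per Mb (22.1 to 52.4), led by Tcf15 (31.4), Otx2 (19.4), Pou3f1 (12.3) and Sox4 (12.2).

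Among relatives of KLF5 in the KLF and SP family, 14 of 25 genes had a summit and 6 a strong one, at 37.6 per Mb (29.0 to 47.9). Klf3 (37.1), Klf10 (29.5), Klf9 (27.4) and Klf13 (17.8, with 10 summits in all) were highest, and Klf4 (17.0) belongs to this list too. Klf5 itself had 7, the best at 6.73 and 42.2 kb from the gene. FGF, LIF and BMP signalling genes had summits at 17 of 23 and strong ones at 6, at 39.6 per Mb (30.7 to 50.4), with Id2 again first, then the feedback inhibitor genes Socs3 (17.7), Dusp4 (16.3) and Spry2 (12.5, with 9 summits in all). Epithelial junction genes had summits at 9 of 15 and strong ones at 5, at 66.6 per Mb (44.9 to 95.1). Epcam, an adhesion molecule gene, reached 23.2, F11r 12.9 and the neighbouring claudin genes Cldn3 and Cldn4 11.6 and 10.5. Hippo pathway and TEAD genes had summits at 7 of 17 and strong ones at Amotl2 (13.9) and Stk3 (12.4), with Yap1 at 7.81 and Ccn1 at 7.76, and a density of 40.6 per Mb (24.1 to 64.2).

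In the lists of primitive endoderm, neural, mesoderm and differentiated-tissue genes, the interval of the density included that of all genes, although the first 3 stood above all genes by the share of genes with a summit. Primitive endoderm genes had summits at 6 of 16, or 37.5% (15.2 to 64.6), and a strong one at Lamc1 (26.3), a laminin gene, at 8.83 per Mb (4.04 to 16.8). The next in that list were Sox17 at 7.14, Dab2 at 7.08 and Lamb1 at 6.35. Neural and ectoderm genes had summits at 6 of 12, or 50% (21.1 to 78.9), and strong ones at Sox1 (14.4) and Neurog1 (10.98), at 17.4 per Mb (9.75 to 28.7), with Olig2 at 6.49 and Lhx2 at 5.12. That interval lies above 17.7% but includes 30.7%, the share of all coding genes bordering the territory that had a summit. Of the neural and ectoderm genes that border it, 54.5% had one. Mesoderm genes had summits at 4 of 13, or 30.8% (9.09 to 61.4), and strong ones at Gsc (13.2) and Hand2 (11.5), at 8.996 per Mb (3.30 to 19.6), with Kdr at 6.10 and T at 3.78. Of 14 differentiated-tissue genes, Ptprc (7.04) and Lyz2 (3.66) had a summit and 0 a strong one, at 4.23 per Mb (0.512 to 15.3). Of 14 housekeeping genes only 4 bordered the territory, and Actb (26.5), Ywhaz (9.03) and Eef1a1 (6.17) had summits, at 68.2 per Mb (37.3 to 114). A high density was therefore not limited to the lists of pluripotency and early lineages.

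**Figure D3:**
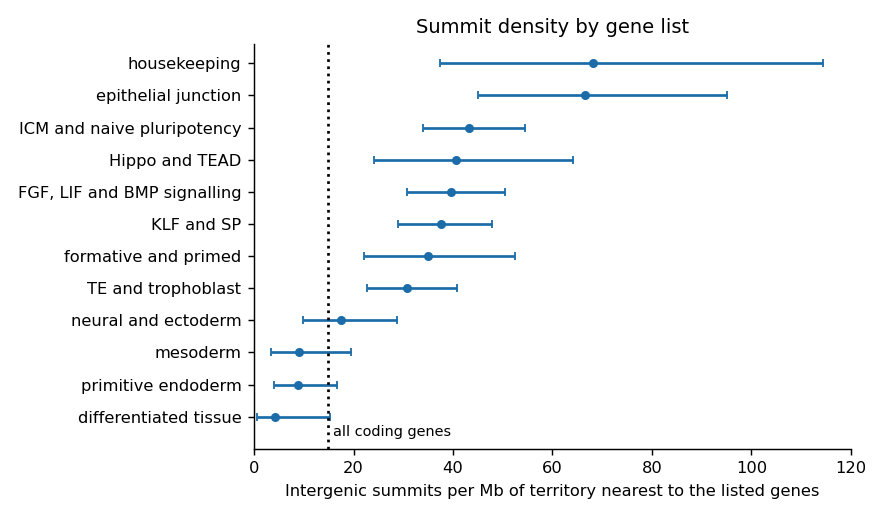
Intergenic summits per Mb of the territory nearest to the genes of each list (points) with exact 95% Poisson intervals; the dotted line marks 14.8 per Mb over all coding genes. The ICM and naive list stands at 43.3 and the TE list at 30.8, while primitive endoderm, mesoderm and differentiated tissue lie at 8.83, 8.996 and 4.23; the housekeeping point at 68.2 rests on 4 genes.

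Non-coding genes were not used to choose the summits, and 1742 of them, 22.2% (21.3 to 23.2), lay inside one, where 17.3% of the territory lies. Within 1 kb of a non-coding gene end lay 830, or 10.6% (9.92 to 11.3), where 5.43% of the territory lies, and within 1 kb of a lncRNA end lay 657, or 8.39% (7.78 to 9.02), where 2.97% of it lies. This is 41.8 summits per Mb near lncRNA ends and 14.0 elsewhere. At least 10-fold enrichment was reached by 13.6% (11.4 to 16.1) of summits near a non-coding end and 13.8% (13.0 to 14.6) elsewhere, with overlapping intervals. A summit within 1 kb was found for 581 of 4989 lncRNA genes (11.6%), for 16 of 128 microRNA genes (12.5%), for 49 of 165 tRNA genes (29.7%) and for 84 of 3553 pseudogenes (2.36%). The share expected for each type from its length of DNA was not computed, so the types cannot be ranked by these shares. Neighbouring genes can also share a summit, and only 32 summits had a tRNA gene end as their nearest non-coding one.

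At lncRNA starts the summits gathered close to the start itself. Around 3056 starts with a known strand, taking 1 start per gene, density was 122 per Mb in the 250 bases before the start and 105 per Mb in the 250 bases after it. It was 43.2 per Mb in the next 250 bases upstream and 22.3 per Mb in the bin 5 kb upstream. Downstream the fall was slower, with 49.7, 57.6 and 49.7 per Mb in the bins from 250 to 1000 bases and 32.7 per Mb in the last bin. The 300-base promoter window held a summit at 117 of these starts, 3.83% (3.18 to 4.57), where the mean density of the territory would place one in 0.444% of windows. The outermost bins, at 22.3 and 32.7 per Mb, were themselves above that mean of 14.8, so 0.444% is a low reference here. Coding starts held one in 28.1% (27.5 to 28.8). When a lncRNA start was bound its peak was of ordinary strength, with a median fold enrichment of 5.61 and 15 of 117 at 10 or more.

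**Figure D4:**
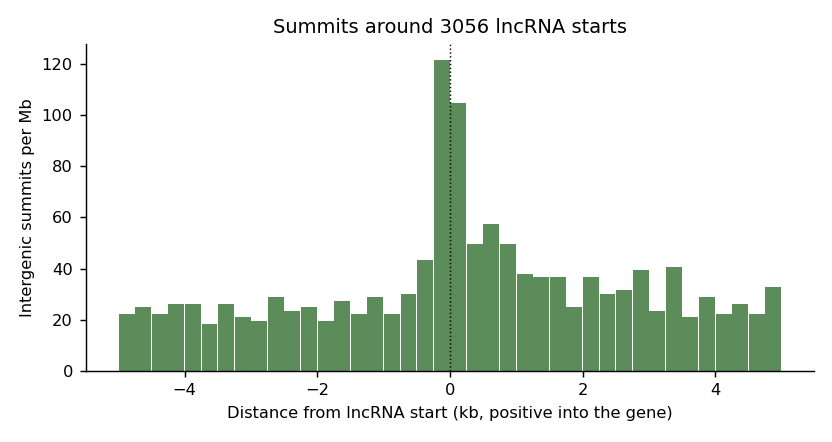
Intergenic KLF5 summits per Mb in 250-base bins around 3056 intergenic lncRNA starts (x axis in kb, positive into the gene). The bins on both sides of the start reach 122 and 105 per Mb, against 22.3 in the bin farthest upstream and 32.7 in the bin farthest downstream.

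The bound lncRNA windows were rich in KLF-type sequence. GGGNGNGG, searched on both strands, was present in 87 of 117, or 74.4% (65.5 to 82.0), against 29.8% (28.1 to 31.5) of 2841 lncRNA windows in the territory with no peak and 49.6% of all promoters of the table. The narrower KLF forms GGGCGTGG and GGGTGTGG, both contained in the first, were found in 17.9% (11.5 to 26.1) against 0.9504% and in 13.7% (8.02 to 21.3) against 2.82%. The SP motif GGGCGGGG, which also matches GGGNGNGG, was found in 23.1% (15.8 to 31.8) against 2.08%. These differences were not particular to lncRNA starts. Coding starts with a summit held GGGNGNGG in 80.9%, against 38.3% of coding starts with no peak. The shares there were 16.1% against 2.08% for GGGCGTGG, 4.90% against 2.99% for GGGTGTGG and 43.1% against 9.72% for GGGCGGGG. For all 11 other motifs searched, the intervals of bound and unbound lncRNA windows overlapped. The POU octamer ATGCAAAT and the CTCF core CNAGNGGGC came nearest to a separation, each with 5.98% (2.44 to 11.9) on 7 windows against 1.97% (1.49 to 2.55) and 2.53% (1.99 to 3.18). Apart from POU, the pluripotency factor motifs were found in similar shares, with 5.98% against 5.28% for SOX (CATTGTT), 8.55% against 6.09% for ESRRB (AAGGTCA) and 0.855% against 1.20% for STAT (TTCCNGGAA). For factors of the trophectoderm and epithelia the shares were 5.13% against 5.35% for TEAD (ACATTCC), 1.71% against 2.04% for GRHL (AACNGGTT) and 7.69% against 6.72% for AP-2 (GCCNNNGGC). They were 9.40% against 11.5% for AP-1 (TGANTCA), 7.69% against 5.60% for the E-box (CACGTG) and 9.40% against 16.2% for the GATA factor motif (AGATAA).

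Base composition differed too, with a median of 54% G and C in bound windows and 47% in unbound ones. Among windows of 45 to 55% G and C, GGGNGNGG was present in 68.3% (55.04 to 79.7, n = 60) of bound and 34.6% (32.3 to 37.0) of unbound ones. Among those of 55% or more it was present in 81.5% (68.6 to 90.7, n = 54) and 58.8% (52.1 to 65.2). GGGCGTGG was present in 15.0% (7.10 to 26.6) against 0.871% in the first of these bands and in 22.2% (12.0 to 35.6) against 4.39% in the second. GGGTGTGG was present in 20% (10.8 to 32.3) against 3.73% in the first band, and in the second its intervals overlapped, with 7.41% (2.06 to 17.9) against 5.26%. Counting every annotated start, 137 pairs of a lncRNA gene and a summit in its window were found for 135 genes, 101 of them had a match to GGGNGNGG, and in 70 the centre of a match lay within 50 bases of the summit. Over the 101 with a match, the median distance from the summit to the nearest match was 29.5 bases. Matches were searched only in the promoter window that held the summit, and a window could hold several. A short distance can therefore arise without any centring of matches on summits. The distance expected in that case was not computed, so these values do not show centring.

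**Figure D5:**
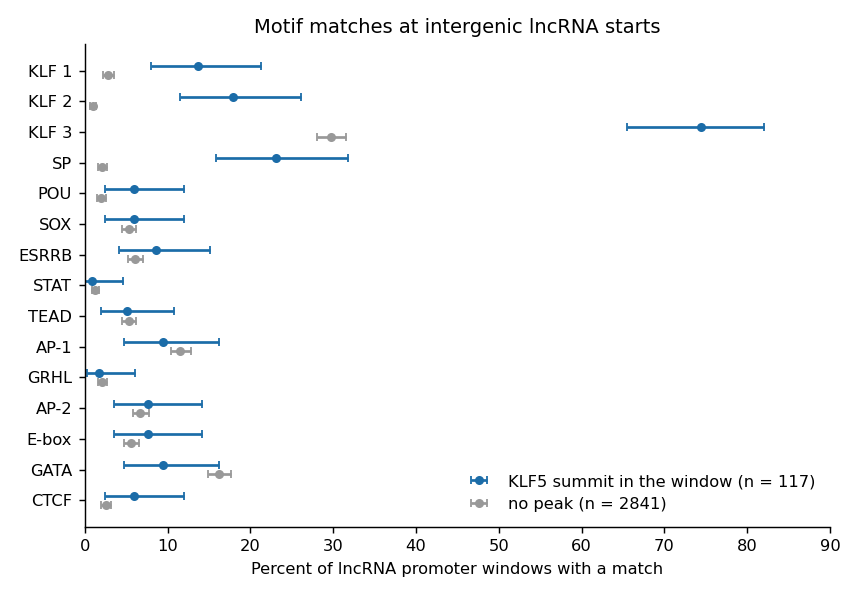
Percentage of 300-base lncRNA promoter windows with a match to each of 15 motifs, on either strand, for windows with an intergenic KLF5 summit (blue, n = 117) and with no peak (grey, n = 2841), with exact 95% binomial intervals. KLF 1, 2 and 3 are GGGTGTGG, GGGCGTGG and GGGNGNGG; these and the SP motif show the widest separation, with 74.4% against 29.8% for KLF 3.

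Peaks lay close to both distance bounds on either side. Just inside the lower bound lay summits 10009, 10012 and 10020 bp from Fgfbp1, Tex36 and Nsd1 with fold enrichments of 5.12, 7.51 and 8.69. Just outside it lay summits 9995, 9999 and 10000 bp from Gm11541, 2510002D24Rik and Olfr1513 with 4.08, 4.64 and 3.76. At the upper bound the last summits inside were 99804, 99914 and 99934 bp from Btg1, Slc44a1 and Naf1 with 5.59, 3.90 and 4.88. The first outside were 100073, 100112 and 100133 bp from Car2, Bambi and Ramp3 with 12.3, 8.83 and 3.21.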

How the data were processed

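Per the file headers, peaks were called with MACS2 2.1.0.20140616 on single libraries against the input of their own cells, with tags of 51 bp extended to 250 bp, 1 tag kept per position and a q cutoff of 0.05. The submitters' processing notes name mm10 and Bowtie 0.12.8. How multi-mapping reads were handled: not given in the sources used here. The deposited values per peak are the pileup signal at the summit, the −log10 p-value, the −log10 q-value, the fold enrichment ratio and the peak length, all made by the authors. The local input background was recovered from pileup and fold enrichment. A Poisson test against it gave the deposited −log10 p-value within 1% for 99.98% of autosomal peaks.

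Summits were placed against RefSeq genes of GRCm38.p6 with python 3.11.15, numpy 2.4.6, pandas 2.3.3 and scipy 1.17.1. Gene rows below 3 Mb, where the table lists scaffolds, were left out (328, of which 105 coding). Density is the number of summits over the exact length of DNA that meets the same rule, between the outermost coding genes of each chromosome and 100 kb beyond. Sequence that cannot be mapped was not removed from it. Strand came from the promoter table, which covers 16457 of 20560 autosomal coding genes, and a side is given only where the strand is known. The classification was tested on simulated positions. Without a genome sequence the planned counts of motifs around all summits were not run, and motifs were counted in RefSeq promoter windows only.

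The members and the 12 gene lists (203 genes, 200 on autosomes) were chosen with earlier results of these data known. Named were the 20 strongest summits, the 5 largest groups (ties by highest fold), the 5 genes with the most summits, up to 4 genes per list by strongest summit, and the 3 summits on either side of each bound. The lncRNA, microRNA and printed windows, the groups next to Zfp217 and Ddit4, and 1700001O22Rik and further genes of a list given beside these, were chosen after their values were seen.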

Additional observations from a re-analysis of the deposited data

How the results depend on the processing

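Each group has 1 library, so no alternative leaves out a replicate. No paired analysis was possible because no group has a second library. Of 40 alternatives, of which 6 were chosen after seeing the data, 23 left a value within 1.5 times (counts) or within its 95% interval (shares and medians). With all genes, non-coding included, as bounds the summits numbered 5139, and with a −log10 q of at least 10 they numbered 3707. At least 10-fold enrichment was reached by 16.8% at a −log10 q of at least 5, 29.0% at a −log10 q of at least 10, 15.7% above the background floor and 10.8% on it, and 22.3% reached a fold of at least 8 and 4.65% a fold of at least 15. The median fold was 5.86 and 7.70 at a −log10 q of at least 5 and 10, by construction since q rises with fold. The share near a non-coding end was 6.86% within 500 bp, 16.5% within 2 kb and 8.39% for lncRNA genes only. The share in groups of 3 or more was 17.6% joined at 5 kb, 44.5% joined at 20 kb and 14.3% with a −log10 q of at least 10. Of bound lncRNA windows with a fold of at least 10, 93.3% of 15 held GGGNGNGG. Between 9 and 12 of the 12 lists stood above all genes, 11 in the main count. The motif windows of 100 and 400 bases around summits were not run. A background below the floor of 3.10 tags cannot be seen in the list, and peaks of low pileup limit its lower end.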

Other observations

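Transfer RNA genes are short genes transcribed by RNA polymerase III. The 32 intergenic summits whose nearest non-coding gene end within 1 kb was that of a tRNA gene had a median fold enrichment of 4.35, with a range of 2.83 to 30.6. Those next to n-TNgtt14 (30.6, on chromosome 5) and n-TIaat17 (17.2, on chromosome 17) passed 10, which is 2 of 32. Over all intergenic summits the share was 13.7%, and over all autosomal peaks 13%. The difference, on so few summits, was not tested. Transfer RNA genes occur in near-identical copies, so reads at them may map to several places.

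Outside the miR-290 cluster, the strongest intergenic summits within 20 kb of a microRNA gene were those at Mir8110 (27.3), the neighbours Mir296 and Mir298 (26.6, 1 summit), and 1 summit of 24.4 on chromosome 8 that lay within 20 kb of both the Mir181c and Mir181d pair and the Mir23a, Mir27a and Mir24-2 cluster. Within 1 kb the highest summits were at Mir124a-1, a neuronal microRNA gene (17.0), and Mir3093 (10.8). These genes were chosen after their values were seen.

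A recovered input background of 10 tags or more was found at 4 of the 7832 summits, nearest to Axin2, Gm40035, Klf9 and Mtf2. The summit nearest to Axin2 had a pileup of 118 tags over a background of 58.3, which gave the lowest fold enrichment of all, 2.01.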
